A study of Rattus norvegicus with 138 samples.

Results

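Kcne5 (ENSRNOG00000019176), Kcnq3 (ENSRNOG00000005206) and Kcnq5 (ENSRNOG00000013781) were 3 of the 32883 genes counted in each of 3 brainstem nuclei. They were taken by symbol. The choice was made from the measured values, since Kcne5 was selected on counts that were higher in spontaneously hypertensive rats (SHRs, SHR/NHsd) than in normotensive Wistar-Kyoto (WKY, WKY/NHsd) rats in all 3 regions. The difference between strains is therefore given for these 3 genes as values and fitted sizes without a test. Differences between ages and between regions had no part in the choice of the genes and were tested.

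All animals were female, and the labels name no treatment. The caudal and rostral ventrolateral medulla (CVLM and RVLM) and the nucleus of the solitary tract (NTS) were punched from frozen sections, and the punches of both sides from 1 rat made 1 library per region, so each library is mixed tissue. There were 5 WKY rats of 8 wk, 4 of 10 wk and 3 of each later age (12, 16 or 24 wk), and 5 SHRs of 8 wk, 5 of 10 wk and 6 of each later age, which gave 46 rats with 3 libraries each. The study treats 8 wk as the stage before hypertension, 10 and 12 wk as its onset, 16 wk as established and 24 wk as long-standing hypertension in SHRs.

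KCNQ genes encode the pore-forming subunits of slow voltage-gated potassium channels. In neurons KCNQ3 and KCNQ5 are subunits of the M current, which opens near the firing threshold, holds back repetitive spiking, and closes when receptors coupled to Gq deplete the membrane lipid PIP2. KCNE genes encode small single-pass proteins that sit beside the pore subunits and change how they gate, and KCNE5, the product of an X-linked gene, is best known as an inhibitory partner of KCNQ1. The NTS receives baroreceptor afferents, the CVLM relays inhibition to the RVLM, and the RVLM drives sympathetic outflow.

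Library totals ranged from 5904570 to 17889406 counts with a median of 10143018. Values are given as CPM, the count of a gene scaled by the library total, and levels of different genes were not compared because gene length was not used. The names of 14 rats' libraries end in the number 2 and the others in 1, and the sources used here do not say what the number stands for. Number 2 covers every library of 10 wk, 3 of the 5 WKY rats of 8 wk, 1 SHR of 12 wk and 1 SHR of 24 wk. Since every 10 wk library has number 2, the 2 are separated only through the 5 rats of other ages with that number. The 10 wk groups were also the deepest, with median totals of 13302904 to 15667479. In the CVLM, 2 libraries of 8 wk, 1 of each strain, carry conflicting ages in their labels and were placed by their titles. Th and Dbh, the catecholamine synthesis enzymes, were present in every library, with Th medians of 146.6, 132.8 and 49.1 CPM for NTS, CVLM and RVLM.

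Kcne5 was the member whose level separated the strains. Across ages it averaged 1.92 ± 0.718 CPM (SD, n = 18) in WKY rats and 4.86 ± 1.63 CPM (SD, n = 28) in SHRs in the NTS. The CVLM means were 4.58 ± 1.72 CPM and 10.0 ± 2.91 CPM, and the RVLM means were 5.95 ± 2.05 CPM and 11.5 ± 3.39 CPM, for the same numbers of rats. Between 9 and 206 counts per library lay behind these values, and no library had a count of 0. In tissue punches, fewer cells of a type and less RNA per cell cannot be told apart.

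In the NTS at 8 wk, Kcne5 was at 3.10, 2.02, 1.67, 1.19 and 0.839 CPM in WKY rats and at 6.52, 5.99, 7.11, 3.45 and 7.11 CPM in SHRs. At 10 wk the NTS values were 1.98, 1.97, 1.57 and 0.788 CPM in WKY rats and 5.04, 2.73, 2.77, 2.44 and 3.11 CPM in SHRs. Every SHR was above every WKY rat at both ages (as for 1.94% and 3.12% of all genes tested), and 4 of the 5 SHRs of 10 wk were below all SHRs of 8 wk. At 12 wk the 3 WKY rats had 2.84, 1.62 and 2.41 CPM, and the 6 SHRs ranged from 3.04 to 6.74 CPM with a median of 4.35 CPM. At 16 wk the WKY values were 2.95, 1.92 and 1.38 CPM and the SHR values 3.85 to 6.02 CPM with a median of 5.02 CPM. At 24 wk the WKY values were 3.06, 1.32 and 1.99 CPM and the SHR values 1.91 to 7.70 CPM with a median of 5.45 CPM. The strains did not overlap at 12 and 16 wk (1.69% and 4.34% of all genes), whereas at 24 wk 1 SHR, the only one of that group with library number 2, lay among the WKY rats (2.92% of all genes had no overlap).

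CVLM levels of Kcne5 at 8 wk were 3.42, 6.57, 3.12, 2.59 and 3.79 CPM in WKY rats and 10.1, 13.1, 8.77, 8.64 and 9.92 CPM in SHRs. By 10 wk they were 1.95, 3.62, 3.86 and 3.16 CPM in WKY rats and 6.38, 7.56, 5.14, 5.56 and 3.36 CPM in SHRs. The strains stood apart at 8 wk (2.91% of all genes), and at 10 wk (3.52%) the lowest SHR fell within the WKY range. CVLM values of 12 wk were 8.02, 5.15 and 4.31 CPM in WKY rats and 6.03 to 13.4 CPM with a median of 10.7 CPM in SHRs. Those of 16 wk were 4.95, 5.02 and 5.16 CPM in WKY rats and 9.05 to 13.7 CPM with a median of 11.9 CPM in SHRs. Those of 24 wk were 5.61, 3.82 and 8.27 CPM in WKY rats and 9.30 to 15.1 CPM with a median of 10.6 CPM in SHRs. At 12 wk the SHR of library number 2, at 6.03 CPM, was below the highest WKY rat (1.99% of all genes had no overlap), and at 16 and 24 wk all SHRs were above all WKY rats (3.4% and 6.26%).

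RVLM levels of Kcne5 at 8 wk were 8.27, 8.16, 3.58, 3.38 and 3.91 CPM in WKY rats and 12.6, 14.9, 18.6, 13.3 and 11.1 CPM in SHRs. By 10 wk they were 3.52, 4.85, 3.85 and 2.65 CPM in WKY rats and 6.35, 7.03, 6.00, 6.83 and 7.47 CPM in SHRs. No strain overlap was seen at either age (3.91% and 3.44% of all genes), and the 3 low WKY rats of 8 wk were those of library number 2. RVLM values of 12 wk were 8.02, 7.25 and 5.41 CPM in WKY rats and 9.07 to 15.4 CPM with a median of 11.4 CPM in SHRs. Those of 16 wk were 8.63, 6.02 and 7.52 CPM in WKY rats and 10.6 to 13.8 CPM with a median of 12.8 CPM in SHRs. Those of 24 wk were 7.77, 7.43 and 6.87 CPM in WKY rats and 6.42 to 17.4 CPM with a median of 12.4 CPM in SHRs. The strains were separate at 12 and 16 wk (1.8% and 2.24% of all genes), and at 24 wk (4.66%) the SHR of library number 2, at 6.42 CPM, was below all 3 WKY rats.

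**Figure D1:**
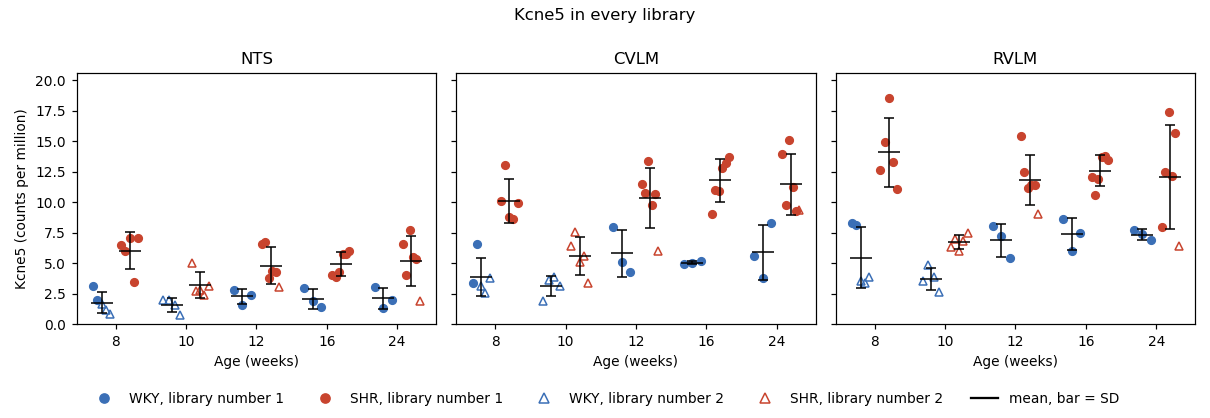
Kcne5 in CPM (linear y axis) against age in weeks, 1 panel per region. Each point is 1 rat, blue for WKY rats and red for SHRs, filled for library number 1 and open for number 2, and bars show the mean and SD of the group. SHR points lie above the WKY points of the same region and age except for single SHRs in the NTS at 24 wk, the CVLM at 10 and 12 wk and the RVLM at 24 wk, and the open points lie low within both strains.

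Every SHR was above every WKY rat in 11 of the 15 combinations of region and age for Kcne5, and in 0 of 15 for Kcnq3 and 0 of 15 for Kcnq5. With libraries of number 1 alone, which leave out 10 wk, Kcne5 had no overlap in 12 of 12 combinations, Kcnq3 in 1 of 12 and Kcnq5 in 0 of 12. Beside these, 5.52%, 2.28%, 4.34% and 4.87% of all genes tested had no overlap in the NTS at the 4 ages from 8 wk on, 4.56%, 2.66%, 3.4% and 7.55% in the CVLM, and 7.74%, 2.59%, 2.24% and 6.47% in the RVLM. Within number 1 the NTS values were 1.32 to 3.10 CPM in 11 WKY rats and 3.45 to 7.70 CPM in 21 SHRs. In the CVLM they were 3.42 to 8.27 CPM and 8.64 to 15.1 CPM, again without overlap over ages. In the RVLM they were 5.41 to 8.63 CPM and 8.02 to 18.6 CPM, and the ranges met only at their ends. Since the gene was chosen for this contrast, nothing is read from these counts.

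The fitted SHR minus WKY difference of Kcne5, as the mean of the 5 ages on the log2 scale, was 1.27 (SE 0.17) in the NTS, a 2.41-fold higher level in SHRs. The CVLM difference was 1.00 (SE 0.12) and the RVLM difference 0.86 (SE 0.11). For this contrast the NTS, CVLM and RVLM had 11.2%, 12.3% and 10.8% of 13793, 13408 and 13411 genes past an adjusted p of 0.05 (edgeR's quasi-likelihood test with Benjamini-Hochberg adjustment over the region's genes), and 5.66%, 5.28% and 5.84% were higher in SHRs. In order of age, the NTS differences were 1.84, 1.00, 1.10, 1.18 and 1.22 on the log2 scale. Those of the CVLM were 1.33, 0.81, 0.79, 1.20 and 0.87, and those of the RVLM 1.28, 0.83, 0.80, 0.76 and 0.65. In each region the difference was largest at 8 wk, the age at which WKY rats held number 2 libraries and SHRs did not. Using number 1 libraries alone, the 8 wk difference was 1.3 in the NTS and 0.74 in the RVLM. The size of the strain difference did not pass the test for a change with age in any region (strain by age, edgeR, adjusted p = 0.722, 0.77 and 0.912 for NTS, CVLM and RVLM), where 0.0145%, 0.0224% and 0.00746% of all genes passed. No unadjusted p of this test was under 0.05 for Kcne5 or Kcnq5, and DESeq2 called 0 of them, with no adjusted p from DESeq2 in the CVLM.

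Summed levels of 5 neuronal markers overlapped between strains, from 4500.8 to 7840.7 CPM in WKY rats and 4515.3 to 8129.9 CPM in SHRs for the NTS. For the CVLM the sums were 5842.7 to 12026.2 CPM and 6692.3 to 11720.2 CPM, and for the RVLM 9102.5 to 21182.5 CPM and 8932.1 to 21901.6 CPM. Of 5 oligodendrocyte markers, 1 (NTS), 3 (CVLM) and 2 (RVLM) were called lower in SHRs, beside 5.51%, 7.0% and 4.98% of all genes. Mobp was lower in all 3 regions, by log2 differences of -0.72, -0.99 and -0.94. Mog was lower in the CVLM and RVLM (-0.24 and -0.23, edgeR, adjusted p = 5.8e-05 and 0.00437) and Mbp in the CVLM (-0.14, adjusted p = 0.0492). Their summed level overlapped between strains, which cannot show that cell composition was alike. Of 5 astrocyte markers, 1 was called in the RVLM and 0 in the NTS or CVLM. It was Aldh1l1, higher in SHRs (0.36, edgeR, adjusted p = 0.00151), beside 5.84% of all genes, and the others there ran from -0.02 to 0.21. Of 5 microglial markers, 1 was called in the CVLM and 0 in the NTS or RVLM. It was Aif1, lower in SHRs (-0.29, adjusted p = 0.0276), beside 7.0% of all genes. The other microglial markers went both ways in the CVLM, from -0.17 (Cx3cr1) to 0.46 (Itgam, adjusted p = 0.0707). Choroid plexus markers summed to more than 100 CPM in 5 NTS libraries and 1 CVLM library, all from WKY rats, and to at most 3.05 CPM in the RVLM. Within that list the sum hides Kl, which was higher in SHRs in the CVLM (log2 1.93, edgeR, adjusted p = 3.7e-08), while Ttr (-6.73, adjusted p = 9.5e-05) and Folr1 (-1.28, adjusted p = 0.0202) were lower in the NTS. In the RVLM, where Kl was below the filter, its difference was 2.75 in the fit without it (SE 0.28, edgeR, adjusted p = 1.7e-10). The NTS difference of Kl was 0.28 (adjusted p = 0.691). The 2 ependymal markers measured summed to 0.936 to 37.8 CPM in WKY rats and 0.222 to 10.2 CPM in SHRs in the NTS, and 1 of them, Ccdc153, was lower in SHRs there (-1.77, adjusted p = 4.1e-05). In the 5 NTS libraries rich in choroid plexus markers Kcne5 ranged from 0.788 to 2.41 CPM, and in the other WKY libraries of the NTS from 1.19 to 3.10 CPM. Without those libraries the fitted strain difference of Kcne5 in the NTS was 1.10 on the log2 scale, against 1.27 with them. The part of the other markers in the strain difference of Kcne5 was not tested.

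Within a strain, Kcne5 differed among the 5 ages in SHRs in the CVLM (edgeR, adjusted p = 0.00791) and the RVLM (adjusted p = 0.012), where 20% and 14.1% of all genes passed this test. It did not pass in the NTS of SHRs (adjusted p = 0.198, beside 18.7% of all genes). In WKY rats it passed in the CVLM (adjusted p = 0.0473, beside 22.2%) and not in the RVLM (adjusted p = 0.0665, beside 6.79%) or the NTS (adjusted p = 0.83, beside 12.5%). The lowest fitted level was at 10 wk in every region and strain. In SHRs the 10 wk level was lower than that of 8 wk by log2 differences of -0.95 (SE 0.32), -0.80 (SE 0.23) and -1.05 (SE 0.22) for NTS, CVLM and RVLM. The WKY differences were -0.11 (SE 0.37), -0.29 (SE 0.26) and -0.61 (SE 0.25). SHR levels of 12, 16 and 24 wk differed from 8 wk by -0.39 to -0.33 (NTS), 0.04 to 0.20 (CVLM) and -0.27 to -0.20 (RVLM).

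These age differences moved with the library number. Kcne5 was lower in number 2 than in number 1 libraries, by log2 differences of -1.07 (SE 0.28, edgeR, adjusted p = 0.00455) for the NTS, -0.56 (SE 0.20, adjusted p = 0.0454) for the CVLM and -0.85 (SE 0.17, adjusted p = 5.0e-04) for the RVLM, from a fit with age and strain. In that fit 25.6%, 21.6% and 16.4% of all genes differed by number, and 12.5%, 11.2% and 7.7% were lower in number 2. In the RVLM the mean was 7.40 CPM in number 1 and 3.68 CPM in number 2 among WKY rats, and 13.0 CPM and 7.02 CPM among SHRs. With the number as a term, the adjusted p of the age test was 0.86 in the CVLM and 0.951 in the RVLM of SHRs and 0.885 in the CVLM of WKY rats, and 0.679%, 0.194% and 0.403% of all genes passed. In the other tests of that fit 0.5% passed among NTS ages of SHRs, and 0.0435% and 0.0447% among NTS and RVLM ages of WKY rats. The number difference in that fit comes from the rats of number 2 outside 10 wk, which were 3 WKY rats of 8 wk and 1 SHR each of 12 and 24 wk. In the RVLM of WKY rats at 8 wk the number 1 libraries had 8.27 and 8.16 CPM and those of number 2 3.38 to 3.91 CPM. The sum of neuronal markers was higher in number 2 libraries, with medians of 7182.1 against 5689.5 CPM (NTS), 10434.4 against 7701.2 CPM (CVLM) and 18068.5 against 14339.0 CPM (RVLM). That of endothelial markers was lower, with medians of 112.7 against 146.2 CPM, 134.9 against 171.8 CPM and 141.2 against 199.6 CPM. Their part in the Kcne5 values was not tested.

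Kcne5 was lowest in the NTS. In a fit over all libraries of the 3 regions with rat as a block, the NTS level was below the CVLM level by a log2 difference of -1.28 (SE 0.07, edgeR, adjusted p = 1.8e-26) and below the RVLM level by -1.62 (SE 0.07, adjusted p = 2.4e-33). The CVLM was below the RVLM by -0.34 (SE 0.07, adjusted p = 2.2e-05). Between regions, 65.9%, 72.7% and 54.0% of 14043 genes passed for these 3 contrasts, so a difference between regions was common. Of the 46 rats, 45 had their lowest Kcne5 in the NTS, 17 of 18 WKY rats and 28 of 28 SHRs. The full order of NTS, CVLM and RVLM was seen in 14 of 18 WKY rats and 21 of 28 SHRs. In the same rats' log2 CPM, compared by permuting signs within rats, all 3 differences passed (permutation test, 100000 resamples, adjusted p = 1.8e-05, 1.8e-05 and 4.5e-05, the first being the adjusted value of the smallest p the resamples can give). That adjustment covered the permutation tests of the members alone. The fit's scaling of libraries, which acts on all genes alike, shifted log2 levels on average by -0.14 between NTS and CVLM. The shift was -0.18 between NTS and RVLM and -0.04 between CVLM and RVLM. The strain difference of Kcne5 did not pass the test for a difference between regions (strain by region, edgeR, adjusted p = 0.388, beside 1.63% of all genes), with the strain effect differing from that of the NTS by -0.24 in the CVLM and -0.40 in the RVLM on the log2 scale. Kcne5 was chosen for effects of 1 sign in all regions, which bears on that test.

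**Figure D2:**
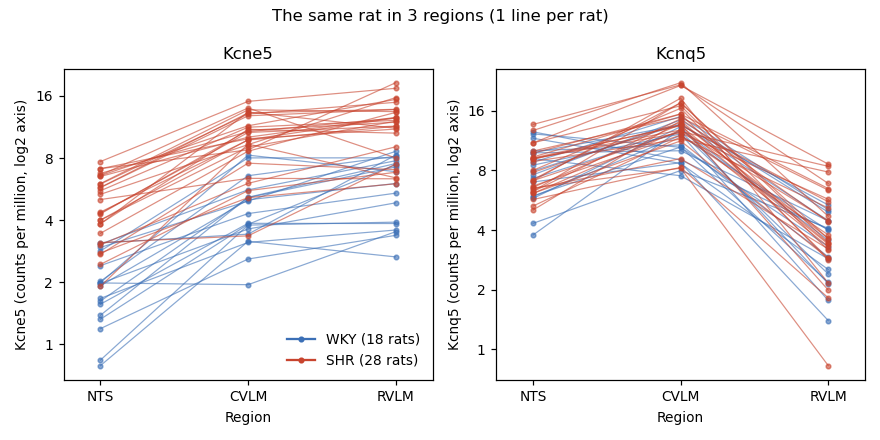
Kcne5 (left) and Kcnq5 (right) in CPM on a log2 axis in the NTS, CVLM and RVLM, with a line for each of the 46 rats, blue for WKY rats and red for SHRs. Kcne5 is lowest in the NTS in 45 rats, and Kcnq5 is lowest in the RVLM in 45 rats and highest in the CVLM in 42.

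Kcnq5, a subunit of the M current, had another order of regions. Over all rats it averaged 8.16 ± 2.32, 13.2 ± 3.52 and 3.96 ± 1.78 CPM (SD, n = 46) for NTS, CVLM and RVLM. The CVLM exceeded the NTS (NTS minus CVLM, log2 -0.82, SE 0.08, edgeR, adjusted p = 2.3e-15), and the NTS exceeded the RVLM (0.92, SE 0.08, adjusted p = 1.5e-16). From CVLM to RVLM the difference was 1.74 (SE 0.08, adjusted p = 1.0e-31), a 3.35-fold higher level in the CVLM. The RVLM was lowest in 18 of 18 WKY rats and 27 of 28 SHRs, and the CVLM was highest in 14 of 18 and 28 of 28.

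At 8 wk the CVLM held 13.3, 9.04, 8.67, 10.7 and 8.74 CPM of Kcnq5 in WKY rats and 8.21, 17.5, 13.7, 14.6 and 14.2 CPM in SHRs. At 10 wk the CVLM values were 7.98, 14.4, 12.6 and 10.5 CPM in WKY rats and 12.1, 21.4, 22.1, 15.4 and 16.9 CPM in SHRs. Of 5 SHRs, 4 were above every WKY rat at either age, and 1 was not. At 12 wk the WKY values were 7.52, 10.5 and 14.9 CPM, and the SHRs ranged from 8.28 to 21.6 CPM with a median of 13.7 CPM. At 16 wk the WKY values were 12.0, 10.0 and 13.6 CPM, and those of SHRs 11.5 to 17.5 CPM with a median of 13.1 CPM. At 24 wk the WKY values were 12.2, 13.7 and 12.9 CPM, and those of SHRs 9.17 to 18.5 CPM with a median of 13.1 CPM. The WKY rats fell inside the SHR range at 24 wk and overlapped with it at every age.

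In the NTS of 8 wk, Kcnq5 was at 5.77, 12.5, 11.6, 10.0 and 6.99 CPM in WKY rats and 6.52, 7.18, 6.57, 6.25 and 5.04 CPM in SHRs. At 10 wk it was at 4.32, 7.60, 7.28 and 12.2 CPM in WKY rats and 6.67, 11, 12.7, 9.77 and 11 CPM in SHRs. None of the 5 SHRs was above the WKY median at 8 wk, and 4 of 5 were at 10 wk. At the later ages the 9 WKY rats ranged from 3.77 to 9.81 CPM and the 18 SHRs from 5.28 to 13.6 CPM. In the RVLM, Kcnq5 ranged from 1.40 to 5.35 CPM over the 18 WKY rats and from 0.828 to 8.60 CPM over the 28 SHRs, and the strains overlapped at all 5 ages. The RVLM was also the region with the widest relative spread, and as few as 9 counts lay behind its lowest value.

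**Figure D3:**
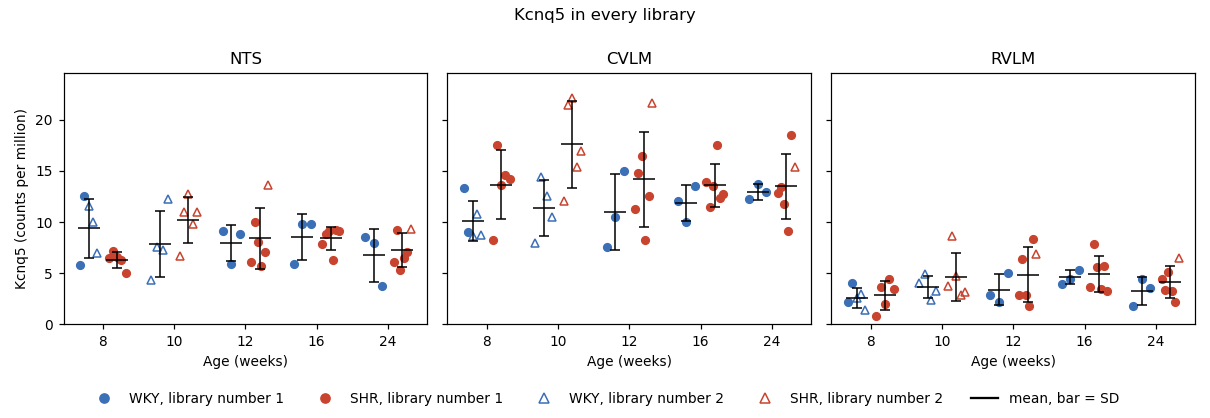
Kcnq5 in CPM (linear y axis) against age in weeks, 1 panel per region, with points, colours and bars as for Kcne5. WKY and SHR points overlap in all 15 combinations of region and age, and the CVLM points lie highest and the RVLM points lowest.

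As the mean of the 5 ages, the SHR minus WKY difference of Kcnq5 was 0.00 (SE 0.12), 0.31 (SE 0.10) and 0.24 (SE 0.18) on the log2 scale for NTS, CVLM and RVLM. At single ages it ran from -0.52 (SE 0.24) in the NTS at 8 wk to 0.61 (SE 0.22) in the CVLM at 10 wk. No test of ages within a strain passed for Kcnq5 (edgeR, adjusted p = 0.203 to 0.738 over 6 tests, 0 with an unadjusted p under 0.05 and 0 called by DESeq2). Neither did strain by age (adjusted p = 0.523, 0.731 and 0.985 in the NTS, CVLM and RVLM) or strain by region (adjusted p = 0.78). By library number, Kcnq5 went the other way from Kcne5, with number 2 minus number 1 differences of 0.48 (SE 0.20, edgeR, adjusted p = 0.0654), 0.29 (SE 0.18, adjusted p = 0.257) and 0.35 (SE 0.32, adjusted p = 0.488) that did not pass.

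Kcnq3, another subunit of the M current, was near the limit of detection. It had 0 to 27 counts per library, with medians of 10, 9 and 7 in the NTS, CVLM and RVLM, and means of 0.938 ± 0.465, 0.825 ± 0.4 and 0.706 ± 0.333 CPM (SD, n = 46). Its largest regularized log value was 3.49, 3.39 and 3.24, below the minimum of 3.5 in every region, so its fits come from tables without that filter. Of the 3 members, 2 passed the filter in each region. It was at 0 in 1 WKY library of the CVLM and 1 of the RVLM, and a count of 0 allows a true value of up to 3 counts in such a library, for counting error only.

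In the NTS at 8 wk, Kcnq3 was at 0.535, 0.674, 1.14, 0.596 and 0.280 CPM in WKY rats and 0.465, 1.92, 1.29, 1.65 and 1.49 CPM in SHRs. At 10 wk it was at 0.142, 0.179, 0.313 and 0.732 CPM in WKY rats and 0.476, 1.55, 1.10, 0.794 and 0.942 CPM in SHRs. At both ages 4 of 5 SHRs were above every WKY rat. At 12 wk the WKY values were 0.872, 0.540 and 0.419 CPM, and those of SHRs 0.446 to 1.43 CPM with a median of 1.09 CPM. At 16 wk the WKY values of 1.08, 0.961 and 1.51 CPM covered much of the SHR range of 0.816 to 1.44 CPM, and at 24 wk WKY rats at 1.19, 1.47 and 0.210 CPM lay among SHRs at 0.436 to 1.89 CPM. Over all ages the CVLM values were 0 to 1.81 CPM in WKY rats and 0.202 to 1.69 CPM in SHRs, and the RVLM values 0 to 0.838 CPM and 0.141 to 1.63 CPM. The strains overlapped in every region at every age.

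The SHR minus WKY difference of Kcnq3 as the mean of the ages was 0.63 (SE 0.22), 0.18 (SE 0.24) and 0.48 (SE 0.24) on the log2 scale for NTS, CVLM and RVLM. In the NTS it was 1.09 (SE 0.44) at 8 wk, 1.41 (SE 0.48) at 10 wk and 0.80 (SE 0.52) at 12 wk, and -0.10 (SE 0.48) and -0.03 (SE 0.50) at 16 and 24 wk. Single WKY rats weighed on these values, which were 2.10 at 10 wk without replicate 4 and -0.50 at 24 wk without replicate 3. The test of a change with age did not pass (edgeR without the filter, adjusted p = 0.63, 1 and 1 for NTS, CVLM and RVLM). Between regions no difference passed in the block fit, with log2 values of -0.03 (SE 0.16, adjusted p = 1) for NTS minus CVLM, 0.22 (SE 0.17, adjusted p = 0.348) for NTS minus RVLM and 0.25 (SE 0.17, adjusted p = 0.328) for CVLM minus RVLM. The permutation of signs within rats gave a mean NTS minus RVLM difference of 0.23 on the log2(CPM + 0.5) scale, higher in the NTS in 33 of 46 rats (permutation test, adjusted p = 0.00543). That p was adjusted over the members' permutation tests alone, and those of the block fit over 23732 genes, so the 2 are not alike. The permutation also lacks the scaling of libraries used in the fits. In the fit with the filter, that scaling shifted log2 levels on average by -0.18 between NTS and RVLM.

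Kcnq1 and the other KCNE genes were read beside the members, and of these Kcne2 passed the filter in all regions and Kcne3 in the RVLM. Kcnq1, the channel KCNE5 is best known to inhibit, had medians of 3.5, 3 and 2.5 counts per library in the NTS, CVLM and RVLM. Kcne1 had a count in 0, 1 and 7 of 46 libraries in the NTS, CVLM and RVLM, and Kcne4 medians of 3 to 5 counts.

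Kcne2, another ancillary subunit and one that choroid plexus is rich in, went opposite to Kcne5. In the RVLM it ranged from 2.32 to 6.93 CPM in WKY rats and from 0.565 to 2.72 CPM in SHRs, with a small overlap, and the SHR minus WKY difference was -1.84 on the log2 scale (SE 0.15, edgeR, adjusted p = 1.6e-13). The NTS and CVLM differences were -1.40 (SE 0.19, adjusted p = 2.8e-07) and -0.67 (SE 0.15, adjusted p = 9.6e-04). Of all genes, 5.51%, 7.0% and 4.98% were called lower in SHRs in the NTS, CVLM and RVLM. Without the libraries over 100 CPM of choroid plexus markers, the Kcne2 difference was -0.74 in the NTS and -0.57 in the CVLM, and both kept their calls, while the CVLM call was lost with libraries of number 1 alone (-0.57). Kcne3, a subunit first known from muscle and gut channels, was at 1.36 ± 0.637 CPM in the RVLM and lower elsewhere (NTS minus RVLM, log2 -2.66, SE 0.25, edgeR, adjusted p = 5.0e-16), and its strain difference in the RVLM of 0.50 (SE 0.22) did not pass (adjusted p = 0.159).

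**Figure D4:**
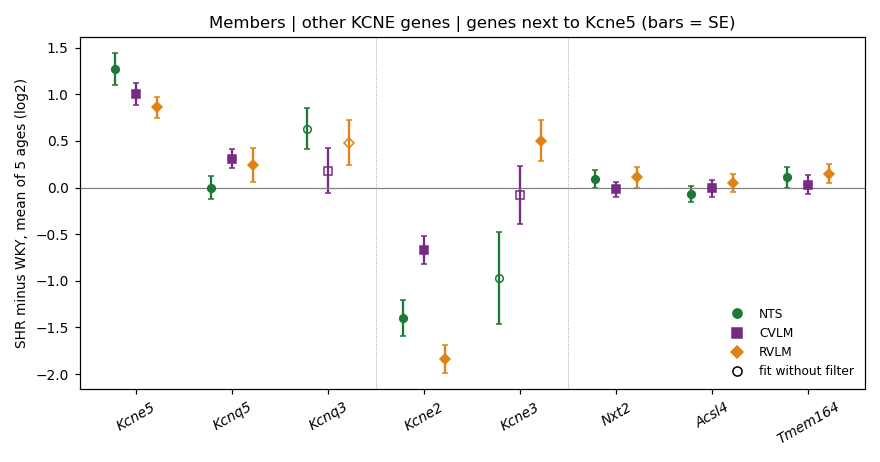
Fitted SHR minus WKY difference as the mean of the 5 ages (log2, y axis) for the 3 members, 2 other KCNE genes and 3 genes next to Kcne5, by region, with bars of 1 SE and open symbols for fits without the filter. Kcne5 lies between 0.86 and 1.27, Kcnq5 between 0.00 and 0.31 and Kcnq3 between 0.18 and 0.63, Kcne2 lies below 0 in all regions, and the 3 neighbours plotted (Nxt2, Acsl4 and Tmem164) lie near 0.

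Genes known to act with these channels were taken as lists, and 43 of them, other channel subunits included, were tested in each region. Called between strains were 8 (NTS), 5 (CVLM) and 5 (RVLM), that is 18.6%, 11.6% and 11.6% beside 11.2%, 12.3% and 10.8% of all genes, and without the libraries over 100 CPM of choroid plexus markers 5 were called in the NTS. Higher in SHRs were 5, 3 and 3 of them, and the median log2 difference was 0.08, 0.08 and 0.07 against 0.01, 0.00 and 0.01 over all genes. Csnk2a1, the catalytic subunit of casein kinase 2 that phosphorylates calmodulin on KCNQ channels, rose in SHRs in all 3 regions, by 0.74, 0.69 and 0.65 on the log2 scale (edgeR, adjusted p = 1.2e-17, 9.6e-13 and 1.5e-11). It was the only called gene among 10, 10 and 9 tested for calmodulin, the kinase anchor and kinases. Of 7 genes of the axon initial segment, where M channels cluster with sodium channels on ankyrin G, 3, 1 and 2 were higher in SHRs and 0 lower. They were the adhesion molecule Nrcam in all regions (0.37, 0.41 and 0.32, adjusted p = 0.00273, 6.1e-04 and 0.00785), the sodium channel genes Scn8a (0.44, adjusted p = 0.038) and Scn1a (0.39, adjusted p = 0.0106) in the NTS, and Scn2a (0.39, adjusted p = 0.0463) in the RVLM. The calls of Scn8a and Scn2a were lost when any of 16 and 28 libraries was left out. Those of Scn8a (0.50) and Scn1a (0.31) were lost without the choroid plexus libraries, and those of Scn8a, Scn2a and, in the RVLM, Nrcam with libraries of number 1 alone.

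Of the channel subunits reported to assemble with KCNE5, 4 were tested, and Kcnd3, an A-type potassium channel, fell in SHRs in the NTS (log2 -0.47, SE 0.10, edgeR, adjusted p = 6.8e-04). Its CVLM and RVLM differences were -0.26 (adjusted p = 0.0731) and -0.19 (adjusted p = 0.327). Among 7 other binding partners, the inositol transporter Slc5a11 fell in the CVLM and the RVLM (-0.36 and -0.31, adjusted p = 1.3e-06 and 2.6e-04), the secretase Bace1 rose in the NTS (0.29, adjusted p = 0.00149) and the synaptic protein Stx1a fell in the NTS (-0.26, adjusted p = 0.0298, lost without any of 10 libraries and without those rich in choroid plexus markers). For the receptors, G proteins and phospholipases that close M channels, edgeR called 0 of 6 in each region, with 0, 1 and 1 at an unadjusted p under 0.05 and 0 called by DESeq2. For the enzymes of PIP2 supply it called 0 of 7, with 0, 1 and 1 at an unadjusted p under 0.05, and DESeq2 called 1 in the CVLM. Of the genes next to Kcne5 in RefSeq's order for GRCr8, Rps9l1, Nxt2, Acsl4 and Tmem164 passed the filter. They did not pass between strains (edgeR, 0 of 4 called, 0 at an unadjusted p under 0.05 and 0 by DESeq2 in each region). Gucy2f, below the filter, differed by 1.72 (SE 0.62) in the NTS in the fit without it (edgeR, adjusted p = 0.0909), and by 0.52 and 0.08 in the CVLM and RVLM. Over all genes 11.2%, 12.3% and 10.8% were called in the NTS, CVLM and RVLM. At such shares lists of 4 to 7 genes would often hold no call, so nothing is read from counts of 0 here.

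Genes whose levels ran most like those of the members are given as a description, over 13116 genes kept in all regions. Over the 30 group means of region, strain and age, Kcne5 was closest to Pla2g7 (Pearson's r = 0.912), Ptk2b (0.901), Csrp1 (0.90), Galnt6 (0.896) and Ptges (0.890). After group means were subtracted from the libraries, it was closest to Ckb (0.689), LOC103689986 (0.676), Mdh2 (0.667), Ndufv1 (0.654) and Cldn5 (0.650). For Kcnq5 the closest over group means were Napb (0.958), Nrn1 (0.952), Lmo3 (0.950), Il1rapl2 (0.943) and Nxph3 (0.942), and within groups Crim1 (0.712), Nptxr (0.703), Plcg1 (0.699), Fam20b (0.695) and Ralgapa1 (0.683). Kcnq3 was closest to Kmt5c (0.733) over group means. Among the members within groups, r was 0.369 between Kcnq3 and Kcnq5 and -0.245 between Kcne5 and Kcnq5. The points share region, strain, rats and library number, and the low counts of Kcnq3 limit its values.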

How the data were processed

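Brainstem punches of NTS, CVLM and RVLM from 46 female rats were sequenced, and replicates of a group are separate rats. The authors deposited 1 table of expected counts per region; per the methods, reads were aligned to rn6 with STAR 2.6.1 and quantified with RSEM 1.3.1. The methods also name a batch adjustment of counts, and whether the deposited tables hold adjusted values was not stated. About 5% of values were not whole (5.02%, 4.95% and 4.88%) and were rounded.

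Genes were kept where the largest regularized log value (DESeq2 1.42.0) was at least 3.5, which left 13793, 13408 and 13411 genes and 14043 in any region. edgeR 4.0.16 (TMM scaling, robust quasi-likelihood fit, R 4.3.3) was fitted per region on 10 groups of strain and age, and over all libraries of the 3 regions with rat as a block, with Benjamini-Hochberg adjustment over all genes and a threshold of 0.05. Each rat gave 1 library per region by the library names, which pairs the regions. Paired region differences used log2(CPM + 0.5) without TMM scaling and 100000 sign permutations, with p adjusted over the members' tests alone. The precision of a level is set by its count and the number of rats.

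The text names the 3 members, KCNQ and KCNE genes, called genes of the partner lists (at most 4 per list, largest change first), the 3 genes on either side of Kcne5 in RefSeq's GRCr8 order, and the 5 genes most correlated with each member. Members and lists were chosen with earlier results of these data known. Of the listed genes, 4 partners, 2 cell type markers and 1 neighbour had no row by that symbol and were not analysed here. Alternatives were RLE scaling, no filter, filterByExpr, DESeq2, a replicate block, the library number as a term, leaving out libraries and a stricter threshold. Sequences were not used here, and some genes that the rule names are not reported here.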

Additional observations from a re-analysis of the deposited data

Results flagged for a closer look

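Dixon's test at the 95% level was applied to 63 groups of 4 to 6 libraries of the members, and 2 held a library far from the rest, where chance gives about 1 in 20 groups. In the NTS of SHRs at 10 wk, replicate 1 had 5.04 CPM of Kcne5 and the next highest rat 3.11 CPM. In the RVLM of WKY rats at 8 wk, replicate 5 had 0.838 CPM of Kcnq3 and the next highest 0.527 CPM, which are 15 and 5 counts. The strain difference of Kcne2 differed between regions (strain by region with rat as a block, edgeR, adjusted p = 3.1e-04), with effects relative to the NTS of 0.64 in the CVLM and -0.60 in the RVLM on the log2 scale. Without the WKY libraries over 100 CPM of choroid plexus markers the NTS effect was smaller and the CVLM effect changed little. The part of those libraries in the difference between regions was not tested.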

How the results depend on the processing

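The mean strain difference of Kcne5 stayed positive under every alternative run, and leaving out each rat in turn gave 1.22 to 1.35 (NTS), 0.95 to 1.07 (CVLM) and 0.82 to 0.90 (RVLM) on the log2 scale. Kcne5 was chosen for this sign in the same libraries, so nothing is read from its staying positive. The age test of Kcne5 in the CVLM of WKY rats (adjusted p = 0.0473) was lost with RLE scaling (0.053), no filter (0.0977), filterByExpr (0.0539), without the libraries of conflicting age (0.0652), with the number as a term (0.885), with number 1 libraries only (0.9) and without number 2 libraries outside 10 wk (0.07), and leaving out single libraries gave 0.0101 to 0.123, with 30 of 46 losing it. In the CVLM of SHRs it was lost with the number as a term (0.86) and number 1 only (0.957), and in the RVLM of SHRs likewise (0.951 and 0.931). In the RVLM of WKY rats (0.0665) it passed with DESeq2 (0.0311) and without number 2 libraries outside 10 wk (0.00382), and leaving out single libraries gave 0.0366 to 0.174. It passed without WKY replicate 1 (0.0366) or 2 (0.0445) of 8 wk, WKY replicate 2 of 16 wk (0.0459), SHR replicate 1 of 12 wk (0.0421) or SHR replicate 6 of 24 wk (0.0438). Counts of called KCNQ, KCNE and partner genes (8, 5 and 5) fell to 1, 0 and 1 with an adjusted p of at most 0.01 and a fold of at least 2, to 3 in the CVLM and 3 in the RVLM with number 1 libraries only, and to 5 in the NTS without the choroid plexus libraries. The NTS minus RVLM difference of Kcnq3 passed only in the paired permutation (0.23), whose p was adjusted over the members' tests alone. Apart from the number settings, which hold fewer libraries or a further term, the cause was not tested. The settings of number 1 libraries only, without number 2 libraries outside 10 wk, and without the choroid plexus libraries were chosen after seeing the data. Without number 2 libraries outside 10 wk, number 2 and 10 wk are the same libraries, so that setting cannot tell age from number.

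Rats of the strains share replicate numbers, and 33 of 54 same-numbered pairs had deviations correlated above 0.1 (range -0.37 to 0.58, median 0.17). In 27 of the 54 the SHR library was closest to its own number, more than random matching among 3 to 5 WKY rats would give. What the shared numbers stand for was not tested. The main fits did not pair the strains by number, and a replicate block was run as an alternative. With the replicate block the age test of Kcne5 in the CVLM of WKY rats was lost (adjusted p = 0.101), and the counts of called genes were 6, 6 and 4, with Scn8a and Stx1a lost in the NTS, Kcnd3 gained in the CVLM and Scn2a lost in the RVLM. Kcnq3, at 0 to 27 counts per library, is limited by depth.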
